A study of Mus musculus with 5 samples.

Results

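The 7 genes described here are 6 inhibitors of cyclin-dependent kinases, Cdkn1a, Cdkn1b, Cdkn1c, Cdkn2a, Cdkn2b and Cdkn2c, and Cdk6, a kinase that the INK4 inhibitors bind, among the 32285 genes counted in single-nucleus RNA-seq of 5 mouse white adipose depots. They were chosen on values of these same data: a high level of Cdkn2a in macrophages of peri-heart fat, a high level of Cdkn1c in endothelium of subcutaneous fat and a low level of Cdk6 in adipocytes of epididymal fat. Those 3 patterns, and every gene in the same contrasts, are therefore given as a description and carry no test.

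A cell enters S phase once cyclin D with CDK4 or CDK6, and then cyclin E with CDK2, have phosphorylated the retinoblastoma protein Rb and released E2F factors. The INK4 proteins (p16 from Cdkn2a, p15 from Cdkn2b, p18 from Cdkn2c) bind CDK4 and CDK6 and keep them from cyclin D, while the Cip/Kip proteins (p21 from Cdkn1a, p27 from Cdkn1b, p57 from Cdkn1c) bind cyclin-CDK complexes, CDK2 above all. Cdkn2a also encodes p19Arf, which frees p53 from Mdm2, and Cdkn1a is a classical p53 target. Cdkn1c is imprinted and read from the maternal copy, and p16 is widely used as a mark of senescent cells.

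SWAT is the subcutaneous depot, EWAT the epididymal one, MWAT the mesenteric one, NWAT the perirenal one and HWAT the fat around the heart, all from 10-week-old male wild-type mice on chow, with no other treatment, perfused with heparin solution to clear blood. Nuclei came from pools of 6 mice for SWAT, EWAT and NWAT, 10 mice for MWAT and 20 mice for HWAT, and each pool gave 1 library. The protocol names C57BL/6J mice throughout, and so do the sample labels of SWAT and EWAT, but the label of MWAT says C57BL/7J, that of NWAT C57BL/8J and that of HWAT C57BL/9J. Lymph nodes next to SWAT and MWAT were removed. With 1 library per depot there is no replicate, so depots are set side by side with 95% intervals that cover counting error only, and a difference between depots cannot be told apart from a difference between libraries.

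The libraries held 12324 to 19770 nuclei and 23313545 to 43855063 unique molecular identifiers (UMIs, counted molecules), and 66249 nuclei in all were kept. Libraries shared 40 to 87 cell barcodes per pair. Nuclei were clustered and named from marker genes, and each name is an "X-like" class rebuilt here, written without the suffix where it recurs. Of 48 clusters 43 were named, in 14 classes, and 734 nuclei stayed unnamed. The HWAT library stands apart: plasma cell markers summed to 2163 to 6694 CPM in its adipocyte-, fibro-adipogenic progenitor (FAP)-, endothelial-, pericyte-, mesothelial- and macrophage-like classes, against 25.1 to 165 CPM in the same classes elsewhere. Their part in the HWAT levels below was not tested. CPM, the level used throughout, is the UMIs of a gene per 1000000 UMIs, summed over all nuclei of a class in a library, and classes with at least 50 nuclei are compared.

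**Figure D1:**
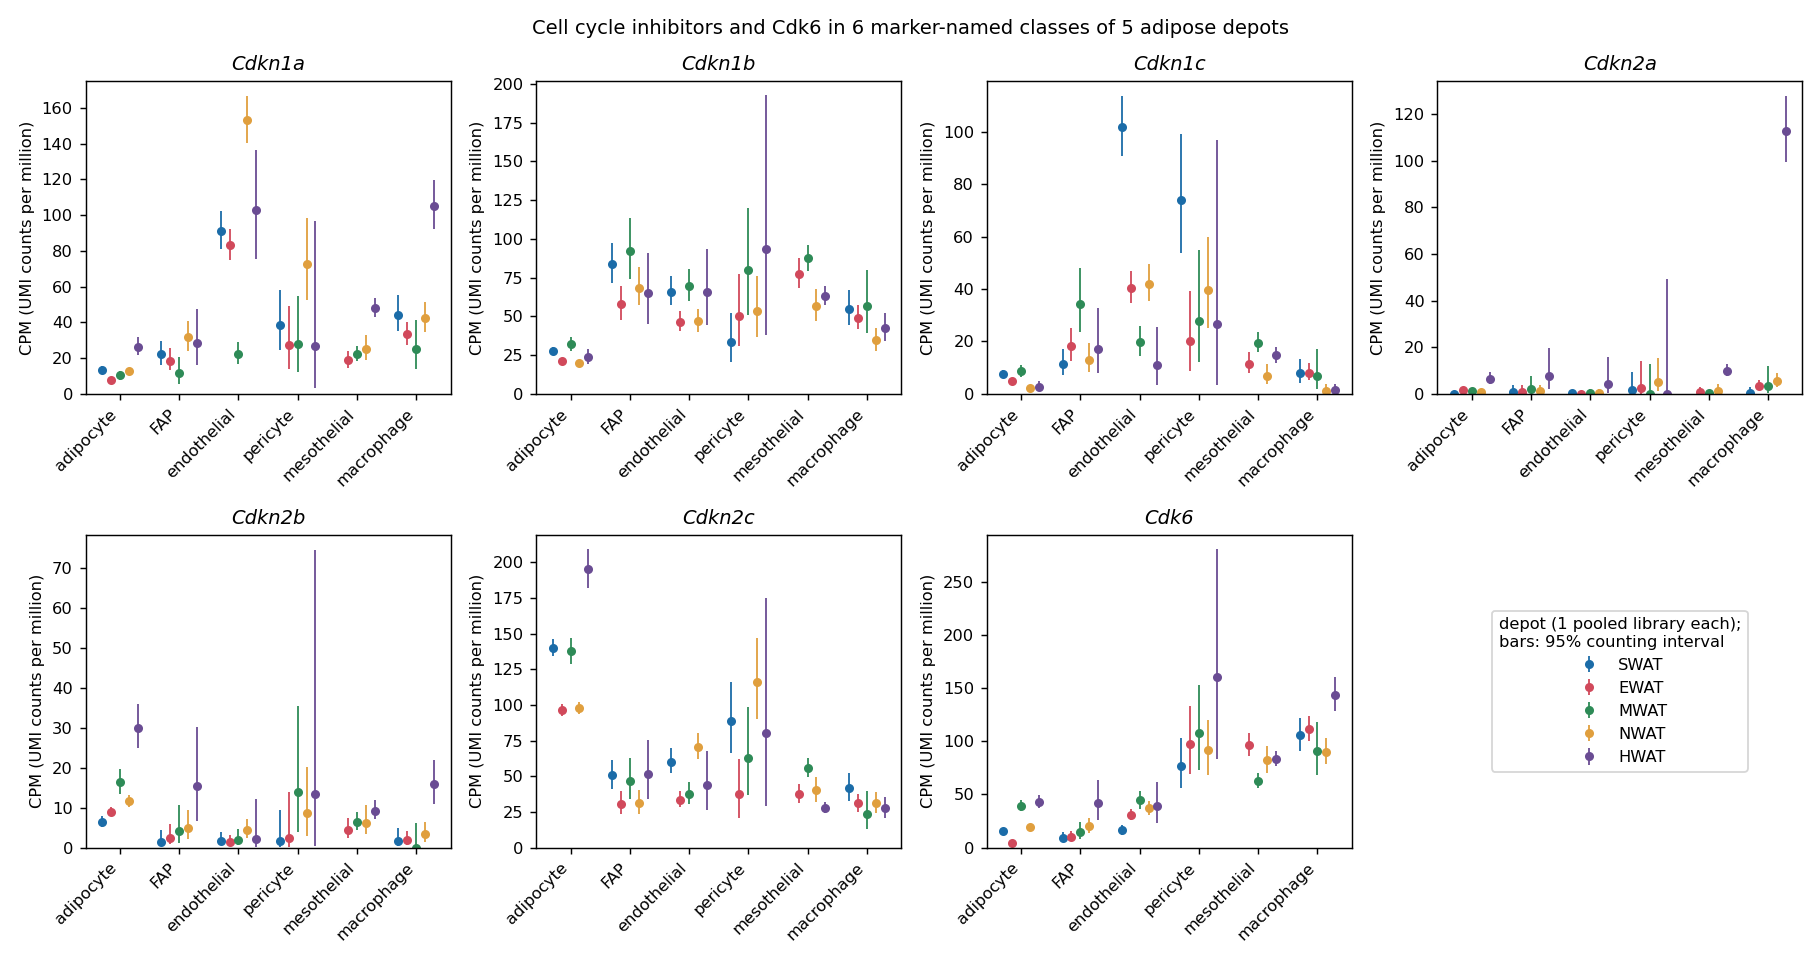
CPM (vertical axes, linear, from 0) of the 7 genes in 6 marker-named classes (horizontal axes), 1 colour per depot, with bars for the 95% counting interval. Cdkn2a stands at 112.8 CPM in HWAT macrophages and at 9.98 CPM or less in the other points drawn, Cdkn1c is highest in SWAT endothelium at 101.7 CPM, and Cdk6 is lowest in EWAT adipocytes at 4.23 CPM.

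Cdkn2a lies on the minus strand at chr4:89274471-89294653 (GRCm38), 11646 bp from Cdkn2b at chr4:89306299-89311039, also on the minus strand. Both coding transcripts of Cdkn2a share the exon at 89276645-89276985 and overlap in the 3′ exon. Their first exons are 89281986-89282192 for the p16 transcript and 89294334-89294653 for the p19Arf transcript. Counts from 3′ ends cannot tell p16 from p19Arf, and every Cdkn2a value here is the sum of both. The promoters of these 3 starts are printed because they are the alternative start regions of the locus whose counts stand out in HWAT. They run 5′ to 3′ on the gene's strand from 250 bases before to 50 after the RefSeq start (GRCm38.p6), in lower case with GC boxes (GGGCGG or CCGCCC) in capitals.
Cdkn2a, p16 start, chr4:89282143-89282442: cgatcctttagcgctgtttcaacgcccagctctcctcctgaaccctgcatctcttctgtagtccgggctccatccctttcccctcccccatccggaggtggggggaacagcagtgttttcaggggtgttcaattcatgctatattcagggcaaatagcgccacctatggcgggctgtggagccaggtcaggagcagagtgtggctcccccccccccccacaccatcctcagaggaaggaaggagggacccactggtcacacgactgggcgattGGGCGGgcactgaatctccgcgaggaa
Cdkn2a, p19Arf start, chr4:89294570-89294869: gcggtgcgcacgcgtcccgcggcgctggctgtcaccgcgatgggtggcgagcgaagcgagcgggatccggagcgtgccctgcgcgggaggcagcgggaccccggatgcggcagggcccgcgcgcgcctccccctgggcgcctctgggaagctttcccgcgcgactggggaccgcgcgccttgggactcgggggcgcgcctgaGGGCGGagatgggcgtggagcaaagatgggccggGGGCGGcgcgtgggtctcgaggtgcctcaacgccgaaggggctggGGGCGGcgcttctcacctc
Cdkn2b, chr4:89310983-89311282: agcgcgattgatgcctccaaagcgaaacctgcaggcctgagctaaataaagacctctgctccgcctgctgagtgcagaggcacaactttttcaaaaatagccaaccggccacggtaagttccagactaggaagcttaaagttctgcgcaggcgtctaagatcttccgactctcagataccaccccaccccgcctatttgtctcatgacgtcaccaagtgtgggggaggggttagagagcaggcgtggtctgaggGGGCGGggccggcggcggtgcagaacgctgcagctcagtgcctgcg
The p19Arf promoter holds 3 GC boxes and 45 CpG, the p16 promoter 1 GC box and 12 CpG, and the Cdkn2b promoter 1 GC box and 18 CpG. Of 32817 RefSeq promoters of this length 35.6% hold a GC box on either strand, and their median is 7 CpG.

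Most Cdkn2a counts came from HWAT. The deposited totals were 6 counts in SWAT, 61 in EWAT, 27 in MWAT, 50 in NWAT and 502 in HWAT, and macrophage- or monocyte-like nuclei held 59.4% of the HWAT counts kept. In those nuclei the level was 0.562 CPM in SWAT (1 count), 3.44 in EWAT (11 counts), 3.35 in MWAT (2 counts), 5.33 in NWAT (13 counts) and 112.8 in HWAT (250 counts, 99.3 to 127.7). HWAT was 21.2 times NWAT (12.2 to 40.3), while the intervals of the NWAT to EWAT ratio (1.55, 0.641 to 3.82) and the EWAT to MWAT ratio (1.03, 0.224 to 9.53) held 1. A UMI of Cdkn2a was found in 13.4% of HWAT macrophages (11.5 to 15.4, median depth 1660.5 UMIs) and in 9.01% after thinning each nucleus to 1000 UMIs, which left out 208 of 1196. In the HWAT class with the lowest level among those with any count, epithelial-like nuclei, the share was 0.741% at a median of 2539 UMIs.

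Measured as log2 CPM less the mean log2 CPM over the 4 remaining depots, 3 of the 7 genes were 2-fold or more above in HWAT macrophages, Cdkn2a (5.29), Cdkn2b (3.12) and Cdkn1a (1.55), beside 6.94% of the 13352 genes tested. Cdkn1c alone was 2-fold or more below (-1.72, from 3 counts in HWAT), beside 14.3% of genes. The median of all genes was -0.14 in this contrast. Since the genes were chosen on it, nothing is read from these counts.

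Within HWAT the Cdkn2a counts were concentrated in macrophages with serous cavity markers. Macrophage-like nuclei were clustered again, and 2 sub-clusters carried the name serous cavity from markers such as Prg4, Icam2 and Selp. These 680 nuclei held 216 counts, a level of 150.2 CPM (130.9 to 171.7), and the other 516 held 34 counts, 43.7 CPM, a ratio of 3.44 (2.39 to 5.09). The larger of them, led by Marco, Cxcl13 and Prg4, reached 164.5 CPM over 582 nuclei, and the smaller, led by Prg4, Alox15 and Slpi, 69.4 CPM over 98 nuclei. A sub-cluster of 402 nuclei led by immunoglobulin transcripts stood at 53.4 CPM. The name rests on Icam2 (597 against 59.2 CPM in the other HWAT macrophages), Prg4 (916 against 34.7), Vsig4 (998 against 247) and Selp (75.1 against 0). Gata6, the factor that defines resident cavity macrophages, was at 20.9 against 9.0 CPM. Markers listed for resident tissue macrophages were split in the same nuclei. Lyve1 (1333 against 505), Timd4 (978 against 240), Folr2 (882 against 598) and Cd163 (494 against 413) were higher. F13a1 (944 against 1892) and Mrc1 (369 against 633) were lower. The larger sub-cluster raised 3 of the 6 serous cavity markers, with the resident list next, and the smaller 6 of 6.

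HWAT was above the other depots on both sides of that split. In the serous cavity sub-clusters EWAT, MWAT and NWAT together had 8 Cdkn2a counts on 99 nuclei (33.1 CPM), and HWAT was 4.54 times that level (2.27 to 10.7). SWAT had no nucleus in these sub-clusters. Among macrophages outside those sub-clusters HWAT was at 43.7 CPM and the other 4 depots at 2.45 CPM (19 counts on 3980 nuclei), a ratio of 17.9 (9.91 to 33.2). Different sub-clusters hold most macrophages of each depot: those led by Marco (48.7%) and by immunoglobulin transcripts (33.6%) in HWAT, one led by Cd209d in SWAT (59.8%), EWAT (52.9%) and NWAT (67.9%), and one led by Actg2 and Tagln in MWAT (41.7%). In HWAT macrophages plasma cell markers summed to 4103 CPM against 61.8 to 117 in the other depots and mesothelial markers to 280 CPM against 0 to 223, and Cdkn2a itself was at 12.3 CPM in HWAT plasma cell-like nuclei. The part of these cells in the macrophage level was not tested.

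Cdkn2a was also counted in other HWAT classes. B cell-like nuclei stood at 17.4 CPM (58 counts), T or NK cells at 10.2, mesothelial nuclei at 9.98 (68 counts), FAPs at 7.65, adipocytes at 6.35 (26 counts) and endothelium at 4.37. The 54 pericytes had 0 counts, where a floor of 3 counts would be 40.2 CPM, so their level is poorly bounded. HWAT mesothelial nuclei were 6.95 times NWAT (2.28 to 34.5, 3 counts in NWAT), and HWAT adipocytes 4.01 times EWAT (2.33 to 6.81). As a measure of free RNA, the levels of 9 macrophage markers in each class were taken as a percent of their level in HWAT macrophages. B cells held 15.5% of the macrophage Cdkn2a level and a median of 4.14% of the markers, with Cdkn2a above 9 of 9. Mesothelial nuclei held 8.85% against 2.32%, above 7 of 9 markers, and epithelial nuclei 2.26% against 2.03%, above 5 of 9. FAPs held 6.78% against 4.04% (above 7 of 9), adipocytes 5.63% against 3.16% (8 of 9) and endothelium 3.88% against 0.947% (8 of 9). In these classes other classes' markers had medians of 16.9% (endothelium) to 22.8% (FAPs) of their library-wide level. The HWAT library held 22.2 CPM of Cdkn2a. The part of free RNA in their Cdkn2a levels, and in the adipocyte ratio to EWAT, was not tested. The nearest coding gene before Cdkn2a in the genome, Mtap, an enzyme of methionine salvage, stood at 8.44 to 16.8 CPM in macrophages of the other depots and at 24.8 CPM in HWAT.

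**Figure D2:**
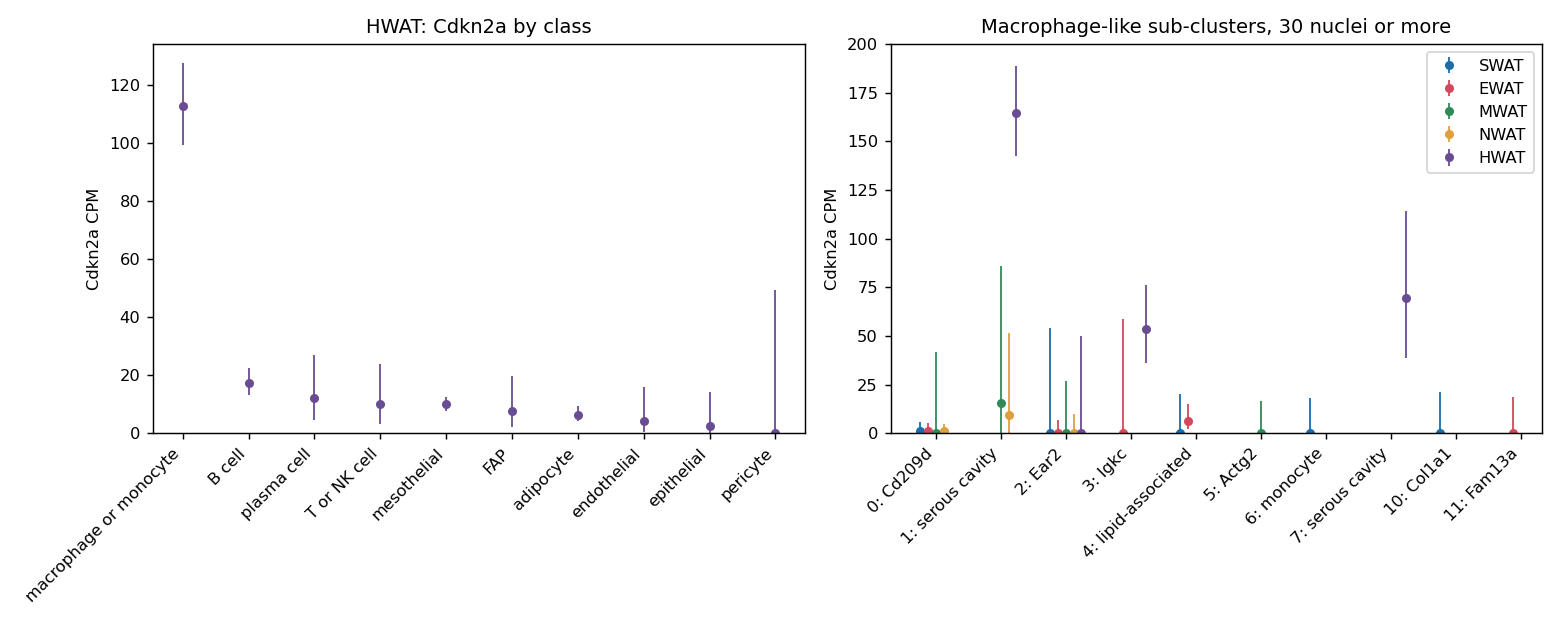
Cdkn2a CPM (vertical axes, linear) in each HWAT class (left) and in macrophage-like sub-clusters with at least 30 nuclei by depot (right; labels give the number and the marker name, or the leading gene where unnamed), with 95% counting intervals. On the left the macrophage point at 112.8 CPM lies above every other class, and on the right the HWAT points of the Marco-led (164.5), Prg4-led (69.4) and Igkc-led (53.4) sub-clusters lie above the points of the other depots.

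Cdkn2b encodes p15, an INK4 protein best known as a target of TGF-beta. Its counts lay mostly in adipocytes, which held 87.7% of them in SWAT, 85.4% in EWAT, 67.7% in MWAT, 82.9% in NWAT and 46.6% in HWAT. The adipocyte level was 6.36 CPM in SWAT, 8.98 in EWAT, 16.4 in MWAT, 11.6 in NWAT and 30.03 in HWAT. Different sub-clusters held most adipocytes of each depot, among them those led by Ntrk3 in SWAT (78.2%), Gal in MWAT (74.7%), Gnal in NWAT (87.0%) and immunoglobulin transcripts in HWAT (81.9%). The order from HWAT through MWAT, NWAT and EWAT to SWAT had no pair of neighbours whose ratio interval held 1, and HWAT was 4.72 times SWAT (3.58 to 6.25). In macrophages the level was 1.68 CPM in SWAT, 1.88 in EWAT, 0 in MWAT, 3.28 in NWAT and 15.8 in HWAT (35 counts), 4.81 times NWAT (2.19 to 12.0). The HWAT serous cavity and other macrophages stood at 18.8 and 10.3 CPM, with a ratio interval that held 1 (0.807 to 4.65). FAPs stood at 1.504 CPM in SWAT (3 counts) and 15.3 in HWAT (8 counts). Of HWAT FAPs 91.9% lay in a sub-cluster led by immunoglobulin transcripts, and of SWAT FAPs 72.0% in one led by Gm16263 and Gsc.

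Cdkn2c encodes p18, another INK4 protein, and adipocytes held 57.3% to 82.7% of its kept counts in each library. The adipocyte level was 140.3 CPM in SWAT, 96.5 in EWAT, 137.7 in MWAT, 98.1 in NWAT and 195.6 in HWAT, and HWAT was 2.03 times EWAT (1.87 to 2.20). The intervals of SWAT over MWAT (0.942 to 1.10) and of NWAT over EWAT (0.958 to 1.08) held 1, so the levels fell into 3 steps. A sub-cluster of adipocyte-like nuclei was led by haemoglobin transcripts, Rbp7, Col1a1, Gpihbp1, Fabp5, Car4 and Fasn. It was higher than the depot's class level in 4 of the 5 depots, at 282.1 CPM in SWAT, 245.4 in EWAT, 275.1 in MWAT and 327.8 in NWAT. In HWAT it stood at 174.8 (19 counts). Gpihbp1 and Car4 are also among the capillary markers used here. The part of other cell types and of free RNA in these levels was not tested. In SWAT the main adipocyte sub-cluster stood at 120.9 CPM. Outside adipocytes NWAT pericytes reached 116 CPM and SWAT pericytes 89.0, while HWAT serous cavity macrophages held 13.2 CPM against 54.0 in the other HWAT macrophages, a ratio of 0.245 (0.134 to 0.43). Cdkn1b was lower there too (29.2 against 66.9 CPM, 0.437, 0.284 to 0.669), and Cdk6 higher (177.3 against 82.3, 2.15, 1.63 to 2.88).

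Cdkn1c, the imprinted inhibitor p57, lies on the minus strand at chr7:143458339-143461050 between Kcnq1 and Slc22a18. Its endothelial level was 101.7 CPM in SWAT (310 counts, 90.7 to 113.7), 40.4 in EWAT (174 counts), 19.7 in MWAT (50 counts), 42.0 in NWAT (143 counts) and 10.9 in HWAT (5 counts). SWAT was 2.42 times NWAT (1.98 to 2.97). NWAT and EWAT were not apart (1.04, 0.829 to 1.31), EWAT was 2.05 times MWAT (1.49 to 2.87), and MWAT and HWAT were not apart (1.80, 0.722 to 5.78). Thinned to 1000 UMIs, which left out 536 of 2001 SWAT nuclei, the levels were 96.2 and 54.6 CPM and the SWAT to NWAT ratio was 1.76, under 2-fold. A UMI was found in 9.65% of SWAT endothelial nuclei (8.39 to 11.0, median 1282 UMIs) and in 6.76% after thinning, against 1.49% and 0.764% in SWAT adipocytes (median 2094.5 UMIs), the SWAT class with the lowest level.

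Against the other depots 1 of 6 genes tested was 2-fold or more above in SWAT endothelium, Cdkn1c (2.01), beside 4.91% of 14069 genes, and Cdk6 (-1.20) was below, beside 5.49%. Cdkn2a, with 6 counts in endothelium over the 5 libraries, did not reach the minimum of 20 counts. This contrast also chose the genes, and nothing is read from the counts. The genomic neighbours had other profiles: Kcnq1, a potassium channel gene, stood at 23.3 CPM in SWAT endothelium and 22.0 to 45.5 elsewhere, and Slc22a18, an imprinted transporter gene, at 4.27 in SWAT and 2.36 to 6.56 elsewhere. Adipocyte markers in SWAT endothelium summed to 2848 CPM, inside the range of 763 to 3955 in the other depots, and Cdkn1c in SWAT adipocytes themselves was at 7.52 CPM.

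Cdkn1c counts in endothelium lay mainly in capillary-like nuclei. In SWAT the capillary level was 224.2 CPM (194 counts on 765 nuclei), the arterial level 44.7 and the venous level 21.1, and capillary nuclei were 7.55 times the arterial, venous and lymphatic nuclei together (5.43 to 10.7). The same ratio was 10.0 in NWAT (5.25 to 21.6), 6.51 in EWAT (4.34 to 10.1) and 5.28 in MWAT (2.28 to 13.3), so the capillary excess was found in the 4 depots with named capillary nuclei. Of HWAT endothelium 87.3% fell in an unnamed sub-cluster led by Igkc, Scgb1a1 and Ahsg, and no vessel type is given for it.

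The SWAT level was higher within capillary and arterial nuclei too. In capillary nuclei SWAT was 2.83 times NWAT (2.22 to 3.62), 2.58 times EWAT (2.05 to 3.26) and 5.41 times MWAT (3.37 to 9.17). Different sub-clusters hold the capillary nuclei of SWAT and NWAT: within the one that holds 735 SWAT nuclei, led by Tcf15, the levels were 214.4 CPM in SWAT, 82.1 in EWAT, 41.5 in MWAT and 34.5 in NWAT (4 counts on 90 nuclei). In arterial nuclei SWAT was 4.20 times NWAT (1.55 to 14.2) and 3.65 times EWAT (1.66 to 8.62), and MWAT had 1 count (20.0, 3.24 to 826). In venous nuclei SWAT was 3.24 times NWAT (1.18 to 11.1), while the intervals against EWAT (1.86, 0.866 to 4.17) and MWAT (2.76, 0.67 to 24.3, 2 counts) held 1.

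Pericytes, the contractile cells on capillary walls, had the next Cdkn1c level in SWAT, at 73.9 CPM (44 counts), with 20.0 in EWAT, 27.8 in MWAT, 39.8 in NWAT and 26.8 in HWAT (2 counts). SWAT pericytes were 3.69 times EWAT pericytes (1.72 to 9.08). They held 72.6% of the SWAT endothelial Cdkn1c level but a median of 12.2% of 8 endothelial markers, with Cdkn1c above 8 of 8. FAPs stood at 34.3 CPM in MWAT and 11.5 to 18.1 in the other depots.

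SWAT endothelial nuclei with UMIs of dividing cells had less Cdkn1c. The 51 nuclei with 3 or more UMIs from a list of S phase, G2 and mitosis genes held 3 Cdkn1c counts, 15.2 CPM against 115.6 in nuclei with none, a ratio of 0.131 (0.0269 to 0.388). The same nuclei were higher for Cdkn2c (136.6 against 54.9 CPM, 2.49, 1.57 to 3.82) and Cdkn1b (116.4 against 57.8, 2.01, 1.23 to 3.17). The Cdkn1c ratio intervals in EWAT (0.683, 0.218 to 1.63), MWAT (1.31, 0.032 to 7.84) and NWAT (0.486, 0.174 to 1.10) held 1, and no difference between depots was tested. Cdkn1c lay mainly in capillary nuclei, and the part of vessel type in the SWAT ratio was not tested. The cut at 3 UMIs is a range of nuclei and not a cell type: 75 SWAT nuclei had 2 such UMIs and 18 had 3, and the median depth was 2501 UMIs above the cut and 1204 among nuclei with none.

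**Figure D3:**
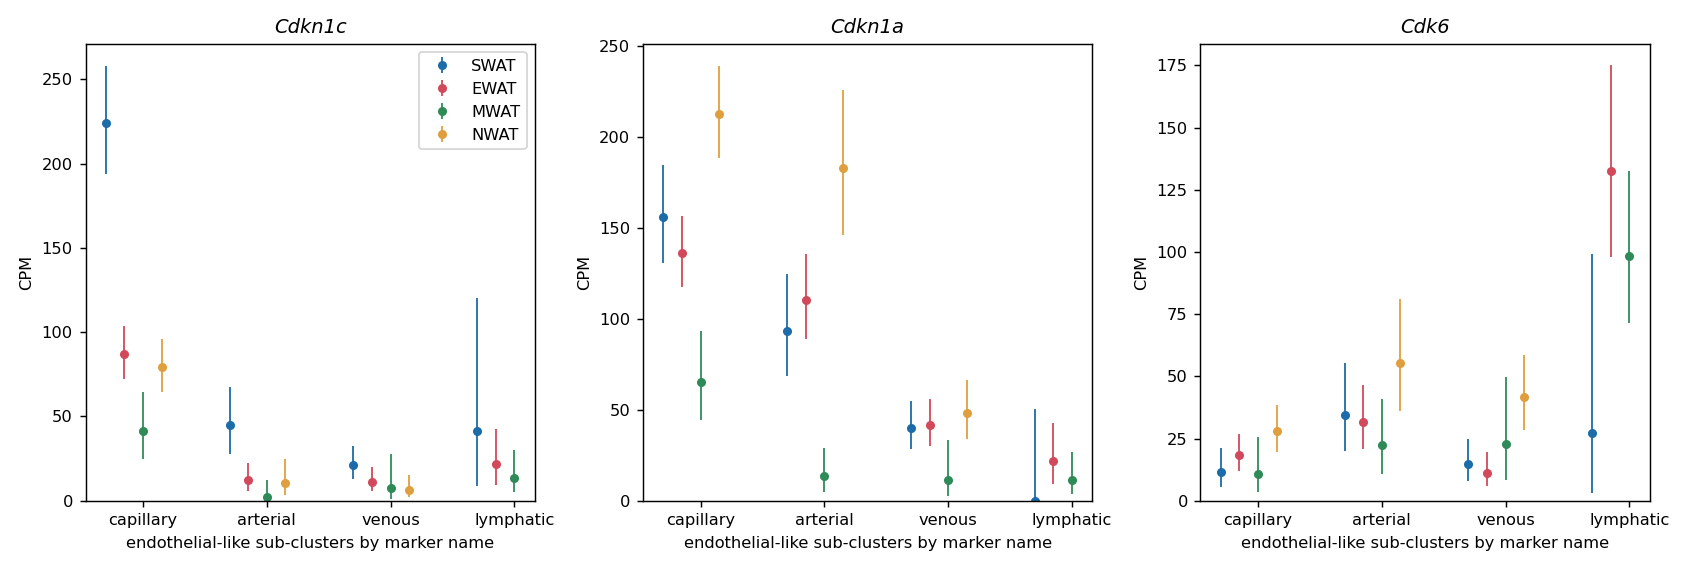
CPM (vertical axes, linear) of Cdkn1c, Cdkn1a and Cdk6 in capillary-, arterial-, venous- and lymphatic-like endothelial nuclei (horizontal axes) by depot, with 95% counting intervals; HWAT has no named sub-cluster, and NWAT no lymphatic point. Cdkn1c is highest in capillary nuclei with SWAT on top at 224.2, Cdkn1a is high in capillary and arterial nuclei with NWAT at 212.8 and 182.9, and Cdk6 is highest in lymphatic nuclei of EWAT (132.4) and MWAT (98.5).

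Cdkn1a, which encodes p21, was highest in endothelium among the classes of SWAT, EWAT and NWAT. The endothelial level was 91.2 CPM in SWAT, 83.3 in EWAT, 22.4 in MWAT, 153.2 in NWAT (521 counts) and 102.8 in HWAT. NWAT was 6.83 times MWAT (5.19 to 9.15), and 9.81 times after thinning to 1000 UMIs. Against the mean of the other depots 2 of 6 genes tested were 2-fold or more above in NWAT endothelium, Cdkn1a (1.24) and Cdkn2b (1.12, 15 counts), beside 4.63% of genes. NWAT is the depot with the highest endothelial Cdkn1a, and that mean includes SWAT endothelium, on which the genes were chosen. Nothing is therefore read from these counts of genes. In alternatives chosen after seeing the data, Cdkn1a was at 0.73 without the MWAT library and Cdkn2b at 0.96 without the EWAT library, both under 2-fold. SWAT and EWAT (1.10, 0.934 to 1.29) and HWAT and SWAT (1.13, 0.809 to 1.54) were not apart. Capillary nuclei were above the other named endothelium in NWAT (2.19 times, 1.77 to 2.73), EWAT (2.15, 1.72 to 2.69), SWAT (2.81, 2.13 to 3.74) and MWAT (5.36, 2.76 to 10.9).

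In macrophages Cdkn1a stood at 44.4 CPM in SWAT, 33.5 in EWAT, 25.1 in MWAT, 42.2 in NWAT and 105.2 in HWAT (92.1 to 119.6). The HWAT level again lay in the serous cavity sub-clusters, at 137.7 CPM against 45.01 in other HWAT macrophages (3.06, 2.13 to 4.52). Unlike Cdkn2a, whose ratio to the other depots is above, the Cdkn1a intervals held 1 both within serous cavity nuclei (HWAT over EWAT, MWAT and NWAT 1.23, 0.823 to 1.92) and outside them (1.26, 0.862 to 1.80). SWAT monocyte-like nuclei stood at 138.9 CPM. HWAT mesothelial nuclei were at 48.0 CPM against 18.8 to 25.4 in EWAT, MWAT and NWAT, 1.89 times NWAT (1.41 to 2.58).

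Cdkn1b encodes p27, which is controlled largely by protein turnover. Its adipocyte level was 27.6 CPM in SWAT, 21.3 in EWAT, 32.0 in MWAT, 19.9 in NWAT and 23.9 in HWAT, and each pair of neighbours in order of level had a ratio interval that held 1. It was the flattest of the 7 genes in adipocytes, with 1.61 between the highest and the lowest depot (1.36 to 1.90). In T or NK cells the level was 131.6 CPM in SWAT, 182.8 in EWAT (14 counts), 30.9 in NWAT (4 counts) and 145.5 in HWAT, and EWAT was 5.91 times NWAT (1.86 to 24.7). That ratio ran from 3.12 to 10.6 over 8 alternatives, and the free RNA estimate for NWAT T or NK cells was 14.9 of the 30.9 CPM. Schwann- or glial-like nuclei of MWAT stood at 124.5 CPM. Venous nuclei of SWAT, at 89.5 CPM, were 1.81 times NWAT (1.22 to 2.73) and 2.37 times EWAT (1.61 to 3.55).

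Cdk6, the kinase, lies on the plus strand at chr5:3341485-3531008, a gene of 189524 bp. Its promoter is printed because its low level in EWAT adipocytes is among the patterns that chose these genes. It holds 27 CpG, a TATA box (TATAAA, found in 13.6% of promoters on either strand), an E-box (CACGTG, 7.15%) and no GC box, so it has no capitals.
Cdk6, chr5:3343643-3343942: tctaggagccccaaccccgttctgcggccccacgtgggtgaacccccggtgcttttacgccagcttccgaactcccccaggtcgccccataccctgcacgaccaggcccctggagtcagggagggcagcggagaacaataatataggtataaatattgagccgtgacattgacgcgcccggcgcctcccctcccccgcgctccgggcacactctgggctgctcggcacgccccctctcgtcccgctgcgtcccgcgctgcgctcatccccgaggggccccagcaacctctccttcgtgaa

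The adipocyte level of Cdk6 was 15.8 CPM in SWAT (231 counts), 4.23 in EWAT (99 counts, 3.44 to 5.16), 39.5 in MWAT (268 counts), 19.5 in NWAT (441 counts) and 43.0 in HWAT (176 counts). EWAT was 0.268 times SWAT, the next depot (0.21 to 0.341), and HWAT was 10.1 times EWAT (7.89 to 13.1). These ratios are of measured counts with no free RNA subtracted. HWAT and MWAT were not apart (1.09, 0.895 to 1.32), MWAT was 2.02 times NWAT (1.73 to 2.36) and NWAT 1.24 times SWAT (1.05 to 1.46). A UMI was found in 1.04% of EWAT adipocytes (0.838 to 1.27, median 2529 UMIs) and in 0.334% after thinning, with 767 nuclei left out, against 1.82% and 0.851% in EWAT FAPs (median 2090 UMIs), the class with the next lowest level. The other depots' adipocytes had 3.11% to 6.96% before and 1.49% to 4.14% after thinning.

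Measures of free RNA placed the EWAT level differently. Other classes' markers were found in EWAT adipocytes at a median of 16.5% of their library-wide level, and 16.5% of the library's 36.8 CPM of Cdk6 is 6.06 CPM, above the 4.23 measured. Against macrophages of the same library, EWAT adipocytes held 3.80% of the Cdk6 level and a median of 1.67% of 9 macrophage markers, with Cdk6 above 8 of 9. The part of free RNA in the 4.23 CPM is therefore not settled. The library-wide estimate for SWAT adipocytes was 3.96 CPM, which leaves 11.8 CPM. In the EWAT contrast 1 of the 7 genes was 2-fold or more below the other depots, Cdk6 (-2.66), beside 6.22% of 17149 genes, and 0 of 7 were above, beside 7.6%. The median of all genes was 0.11, and nothing is read from these counts, as the contrast chose the genes. Fam133b, 12825 bp after Cdk6, stood at 154.5 CPM in EWAT adipocytes and 115.6 to 159.9 in the other depots.

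Among EWAT adipocytes the low level was not shared by every sub-cluster. A sub-cluster led by Foxj1 and other ciliary genes stood at 1.68 CPM on 700 nuclei. The 188 nuclei of a sub-cluster led by Prkg1, Lcn2 and Myh11 held 19 of the 99 counts, 84.8 CPM (51.0 to 132.3), at a median of 846 UMIs, and the 230 MWAT nuclei of that sub-cluster stood at 75.7. Leading genes were ranked against the other adipocyte sub-clusters, so genes shared by adipocytes drop out and a lack of adipocyte markers there says nothing. Those of the Prkg1-led sub-cluster include Myh11, a smooth muscle gene, and Mmp7 and Rmst, which also lead the main EWAT epithelial cluster. The part of other cell types in this level was not tested. In the sub-clusters where EWAT nuclei sat beside the main nuclei of another depot, EWAT held 1.498 CPM (1 count on 289 nuclei) against 17.6 in SWAT in the Ntrk3-led cluster, 11.5 (3 counts on 103 nuclei) against 19.8 in NWAT in the Gnal-led cluster, and 0 counts on 41 nuclei against 43.4 in MWAT in the Gal-led cluster. These EWAT values rest on few nuclei.

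The EWAT library held Cdk6 at high levels elsewhere. Epithelial-like nuclei had 409 counts, 402.1 CPM, of which 392 lay in a cluster of 277 nuclei led by Adcy8, Dcdc2a and Rmst. HWAT epithelial nuclei are of other clusters, led by Scgb1a1 (104 nuclei) and by ciliary genes (31), at 87.8 and 178.2 CPM, so no ratio between the depots is given. In EWAT, T or NK cells stood at 274.2 CPM (21 counts), macrophages 111.3, pericytes 97.6, mesothelial nuclei 96.7, endothelium 30.8 and FAPs 10.1. Over all depots macrophages stood between 90.2 CPM in NWAT and 144.0 in HWAT, and lipid-associated macrophages reached 209.9 in EWAT and 281.5 in SWAT. Lymphatic endothelium stood at 132.4 CPM in EWAT and 98.5 in MWAT, and capillary endothelium was below the other named endothelium in NWAT (0.553, 0.359 to 0.842), EWAT (0.471, 0.291 to 0.737) and MWAT (0.212, 0.0664 to 0.523), while the SWAT interval (0.531, 0.233 to 1.10) held 1. SWAT endothelium as a whole was the lowest at 16.4 CPM, 0.532 times EWAT (0.376 to 0.742). HWAT FAPs, at 42.1 CPM, were 4.66 times SWAT FAPs (2.39 to 9.22). Here too different sub-clusters held most nuclei of each depot, the one led by immunoglobulin transcripts 91.9% in HWAT and one led by Gm16263 and Gsc 72.0% in SWAT, and their part in the ratio was not tested.

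**Figure D4:**
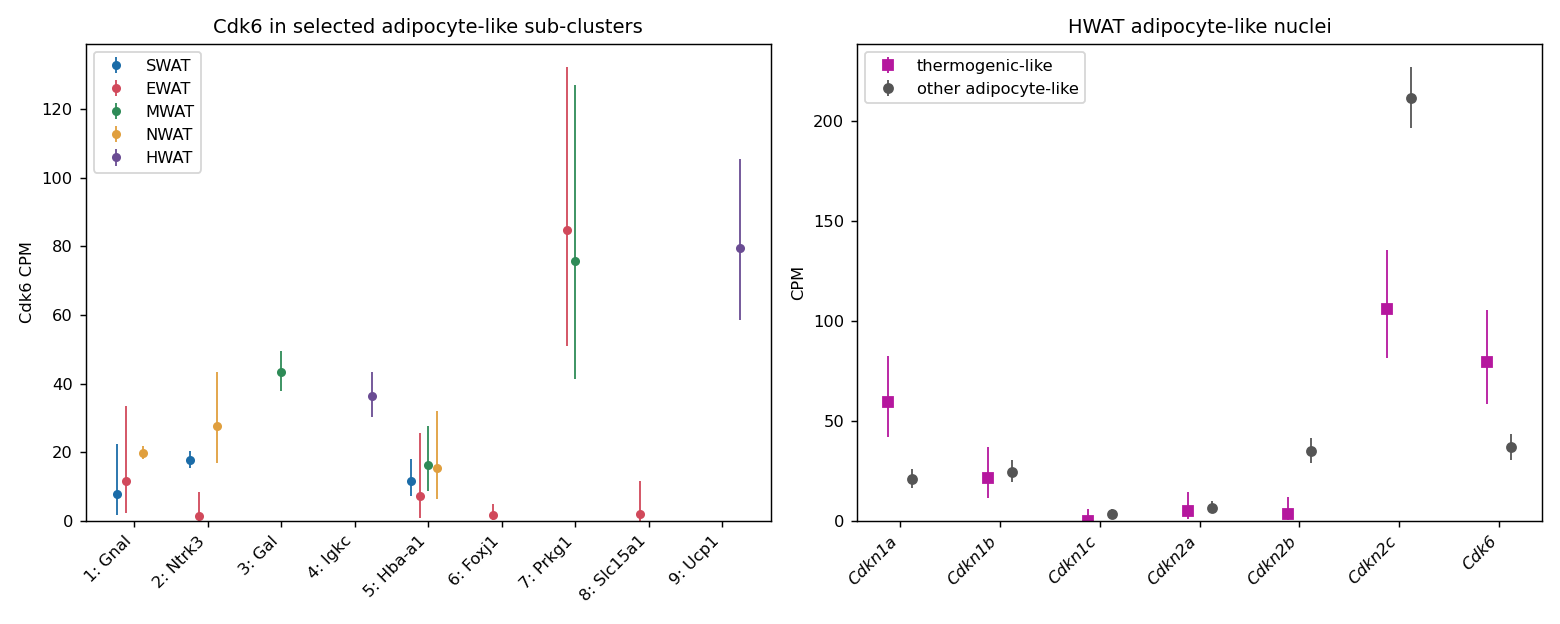
Left: Cdk6 CPM in selected adipocyte-like sub-clusters, each with at least 100 nuclei, by depot (labels give the number and leading gene). Right: the 7 genes in HWAT thermogenic-like and other HWAT adipocytes; vertical axes are linear CPM and bars the 95% counting intervals. In the sub-clusters drawn on the left EWAT is at 11.5 CPM or less except in the Prkg1-led one (84.8), and on the right thermogenic nuclei are higher for Cdkn1a and Cdk6 and lower for Cdkn2b and Cdkn2c.

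Among HWAT adipocytes 4 of the 7 genes were 2-fold or more above the average depot, Cdkn2a (3.40), Cdkn2b (1.56), Cdk6 (1.51) and Cdkn1a (1.27), beside 14% of 17149 genes, and 0 of 7 below, beside 19.2%. The genes were chosen on Cdkn2a in macrophages of the same library and on Cdk6 in EWAT adipocytes, part of the mean used here. Nothing is therefore read from these counts. The Cdk6 value fell below 2-fold without the EWAT library (0.90), whose low level is among the patterns that chose the genes, and the Cdkn1a value without thermogenic nuclei (0.92), while Cdkn2a and Cdkn2b stayed past it in each. HWAT adipocytes held 5.63% of the macrophage Cdkn2a level and a median of 3.16% of 9 macrophage markers (1.17 to 21.3). The part of free RNA in their Cdkn2a value was not tested. Without the NWAT library Cdkn1c was 2-fold or more below. These alternatives were chosen after seeing the data. Of these adipocytes 268 formed a thermogenic-like sub-cluster led by Ucp1, Fabp3 and Cidea, which no other depot had at 30 nuclei or more, and 1815 did not. Thermogenic nuclei were higher for Cdkn1a (59.6 against 20.6 CPM, 2.89, 1.88 to 4.37) and Cdk6 (79.4 against 36.7, 2.17, 1.52 to 3.04). They were lower for Cdkn2b (3.31, 2 counts, against 34.7, 0.0955, 0.0114 to 0.352) and Cdkn2c (105.9 against 211.1, 0.502, 0.382 to 0.648). For Cdkn1b (0.884, 0.452 to 1.59) and Cdkn2a (0.754, 0.145 to 2.49) the interval held 1. Without the thermogenic nuclei HWAT stood at 36.7 CPM of Cdk6, 0.929 times MWAT (0.746 to 1.15), and at 34.7 CPM of Cdkn2b, 2.12 times MWAT (1.62 to 2.77).

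The genes whose log2(CPM + 1) followed a member most closely over 42 depot and class units, out of 16810 genes, are given as a description, since the units share 5 libraries. For Cdkn2a these were Nppa (Pearson r 0.72), Xlr4b (0.70), Gm16104 (0.70), Mcemp1 (0.70) and Saa3 (0.68). Of these Gm16104 had 60.0 CPM in HWAT macrophages and 8.38 in its next unit, and Mcemp1 65.4 and 10.7. The gaps were smaller for Nppa, a heart muscle gene (18.1, and 13.2 in HWAT B cells), and Saa3 (226, and 164 in NWAT macrophages). Xlr4b was highest in HWAT T or NK cells (49.2). For Cdkn1c they were Gnas (0.84), Mprip (0.81), Igfbp7 (0.81), Eva1b (0.81) and Fbxl7 (0.80), with pericytes or endothelium as their highest units. For Cdk6 they were M6pr (0.77), Tmem176a (0.71), Hopx (0.70), Mboat1 (0.69) and Fuca2 (0.68).

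The other genes of the pathway were taken from 9 lists and read in the same contrasts, where a gene past 2-fold is called above or below. Of all genes in HWAT macrophages 6.94% were above and 14.3% below, and nothing is read from list counts near such shares. In HWAT macrophages 2 of 8 genes of the G1 kinases and cyclins were above and 0 below (list median log2 0.67, all genes -0.14): Ccnd1, which encodes cyclin D1, stood at 15.2 CPM in SWAT, 15.6 in EWAT, 15.1 in MWAT, 22.6 in NWAT and 53.3 in HWAT, and Cdk4 at 26.8 to 50.9 elsewhere and 78.1 in HWAT. Of 13 Rb family and E2F genes 0 were above and 2 below (median -0.45), Rb1 at 198.5 to 338.1 CPM elsewhere and 109.2 in HWAT and E2f5 at 17.2 to 40.4 and 11.7. Of 21 p53 pathway genes 4 were above and 0 below (median -0.04), the cell death genes Pmaip1, Fas and Bbc3 and the growth inhibitor Btg2.

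The 15 Polycomb and demethylase genes tested in HWAT macrophages had 0 above and 1 below (median -0.50), beside 6.94% and 14.3% of all genes. The gene below was Cbx7 (-1.25), which encodes a Polycomb protein known to repress the INK4 locus. Of 15 TGF-beta, FoxO and Myc genes 2 were above, Tgfb2 (1.12 to 21.7 CPM elsewhere, 52.8 in HWAT) and Myc (5.03 to 11.8 and 21.2), and 0 below (median -0.43). Of 14 imprinted growth genes 0 were above and 7 below (median -0.997), with Nnat at 199.5 to 736.9 CPM elsewhere and 66.8 in HWAT and Kcnq1, Peg3 and Plagl1 also low. Nnat is also among the leading genes of adipocyte clusters. In adipocytes Plagl1 stood at 9.03 CPM in HWAT and at 40.8 to 134.3 in the other depots. The part of free adipocyte RNA in the macrophage levels of these imprinted genes was not tested. Senescence-associated genes were split, 6 of 17 above and 4 below (median 0.09). In HWAT Cxcl2 stood at 168.4 CPM against 2.87 (NWAT) to 95.1 (EWAT) elsewhere, and Cxcl1 at 23.0 against 0 to 9.38. Igfbp5 stood at 92.1 against 2.46 to 20.1 elsewhere, and Mmp12 at 15.3 against 77.1 to 466. HWAT endothelium held 231.7 CPM of Igfbp5, and the part of free RNA in its macrophage level was not tested. Of 31 S phase, G2 and mitosis genes 2 were above, with Tyms at 1.29, and 3 below, Kif15, Kif11 and Ect2 (median -0.04), and of 12 genes for inhibitor turnover 0 were called (median -0.08).

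In SWAT endothelium 10 of 30 S phase, G2 and mitosis genes were above and 0 below (median 0.53, all genes -0.04), beside 4.91% and 5.49% of all genes. Top2a stood at 31.2 CPM against 4.64 to 20.9 elsewhere, Cdk1 at 12.1, Kif11 at 8.20 and Rrm2 at 7.22. The share of nuclei with 3 or more UMIs of that list stood at 2.55% for SWAT and 3.65% for NWAT, with 1.88% for EWAT, 1.19% for MWAT and 2.06% for HWAT, at different depths. Of 16 imprinted genes 1 was above, Nnat, whose 630 CPM in SWAT lay inside the 72.1 to 789 of the other depots, and 2 were below, Rian and Zdbf2 (median -0.39). Senescence-associated genes had 4 of 16 above, among them Ccl8 (70.9 CPM against 4.41 to 16.9 elsewhere), Mmp3 (10.8 against 0 to 4.998) and Mmp12 (5.91, with 10.4 in EWAT), and 1 below, Igfbp5 (median -0.07). Mmp12 stood at 256.7 CPM in SWAT macrophages, and the part of free RNA in its endothelial value was not tested. Of 21 p53 pathway genes Phlda3 alone was above (1.19) and 0 below (median 0.00). Phlda3 stood at 64.6 CPM in SWAT, 52.3 in MWAT and 46.6 in EWAT, with 22.0 in NWAT and 10.9 in HWAT (5 counts). The G1 (7 tested), Rb and E2F (12), turnover (12), Polycomb (16) and TGF-beta (16) lists had 0 called, with medians from -0.18 to 0.25.

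In EWAT adipocytes 5 of 19 imprinted genes were above and 0 below (median 0.47, all genes 0.11), beside 7.6% and 6.22% of all genes. Mest stood at 41.5 CPM against 0.733 to 14.3 elsewhere and Plagl1 at 134.3 against 9.03 to 125.9. Peg10 and Igf2 were above by 1.23 and 1.14. Single genes were called in the Polycomb list (Ezh1 above by 1.01, 16 tested, median 0.24) and the TGF-beta list (Tgfb3 above by 1.07, 16 tested, median 0.40), with 0 below in both. Of 30 S phase, G2 and mitosis genes 1 was above, Cenpe, and 2 below, Cdk1 and Prc1 (median -0.10). Cenpe stood at 1.67 CPM in EWAT, under the 1.82 of NWAT, with 0 counts in HWAT. Of 16 senescence-associated genes Mmp12 was above (8.00 CPM) and Mmp3 below, with 0 counts in EWAT and 144 in SWAT (median -0.07). Mmp12 stood at 466 CPM in EWAT macrophages, and the part of free RNA in its adipocyte value was not tested. The G1 (8 tested), Rb and E2F (12), turnover (12) and p53 (22) lists had 0 called, with medians from -0.24 to 0.45. The G1 list holds Cdk4 and the D cyclins, none of them 2-fold from the other depots.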

How the data were processed

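The authors' deposited files hold UMI counts per gene and nucleus for 5 libraries (10x 3′ v3 chemistry, 10x matrix format). Per the file headers, Cell Ranger 6.0.1 wrote them. The genome was mm10, as the submitters' processing notes say. The annotation release, and whether intronic reads were counted, are not given in the sources used here. The files held no nucleus under 500 UMIs. Nuclei with under 200 genes or over 10% mitochondrial UMIs were removed (149), and doublets were called per library against simulated doublets at 0.8% per 1000 nuclei and removed (9642). The kept nuclei (66249) had a median of 1220 to 2654 UMIs per library. They were normalised, reduced to 40 components of 2000 variable genes, without the 7 genes and the pathway lists, and clustered (Leiden, resolution 1, and 0.5 within classes). A cluster was named where a class's markers stood apart in it by mean log2 difference of at least 1, led the next class by 0.5 and were not outnumbered by another class's among its 10 leading genes. Most of these markers also had to be raised 2-fold or more. Sub-clusters within a class were named at looser cuts, a mean of 0.5 and a smaller lead, with no need for most markers to be raised. They needed at least 1 of their own markers among the 10 leading genes. A cluster led by the heart muscle genes Nppa, Myl7 and Myl4 was left unnamed, a choice made after its leading genes were seen.

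Counts were summed per class and library. Intervals are exact (Poisson, Clopper-Pearson, or binomial given the sum for ratios), at 95%; PCR duplicates are removed by UMIs, and the intervals cover counting error only. A group at 0 counts is read against a floor of 3 counts. Folds over all genes add 0.5 counts and need 20 counts over the libraries. There are no replicates, so no test was run and no p-value is given. Gene positions come from the GENCODE M21 annotation of GRCm38, matched by gene ID, and promoters from RefSeq by symbol (6 of 7 genes matched). Antisense genes overlap Cdkn1c and Cdk6 but held 0 to 24 counts. The 7 genes, the lists and the markers were chosen with earlier results of these data known. Named genes are the 7 members, the 5 most correlated genes of Cdkn2a, Cdkn1c and Cdk6, up to 4 genes of each list past 2-fold, and the nearest coding neighbours. Alternatives were doublet rates, cell filters, resolution, separate clustering, class set per nucleus, clustering genes, free RNA subtraction, mean of nuclei, thinning and edgeR TMM scaling, and for counts of genes the minimum count, the fold and, added after seeing the data, libraries or thermogenic nuclei left out. Tools were edgeR 4.0.16 in R 4.3.3, and leidenalg 0.10.2, pandas 2.3.3, scipy 1.17.1 and numpy 2.4.6 in Python 3.11.15. The fold over all genes was tested on simulated data. The values of 1 adipocyte sub-cluster are not reported here.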

Additional observations from a re-analysis of the deposited data

Results flagged for a closer look

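Cdkn1a reached 237.6 CPM (14 counts on 31 nuclei, 130 to 399) in a small MWAT cluster that carried no class name and enters no comparison of the report. It is listed here because its interval lies above the highest named MWAT class, pericytes at 27.8 CPM. The cluster was led by Apoa1, Fabp2, Rbp2, Fabp1 and Reg3b, genes known from the lining of the small intestine, and its nuclei had a median of 1943 UMIs. The other members there stood at 3 counts or fewer.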

How the results depend on the processing

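Of 79 values of the 7 depot ratios under other settings 74 stayed within the main counting interval, 5 left it and 0 turned direction. Those 5 were thinning to 1000 UMIs, which gave 9.81 for Cdkn1a in endothelium (NWAT over MWAT) and 1.76 for Cdkn1c in endothelium (SWAT over NWAT, from 2.42 to under 2-fold), the class set per nucleus, which gave 3.55 for Cdkn2b in adipocytes (HWAT over SWAT), TMM scaling, which gave 2.27 for Cdkn2c in adipocytes (HWAT over EWAT), and the mean of nuclei, which gave 0.359 for Cdk6 in adipocytes (EWAT over SWAT). The Cdkn2a ratio in macrophages ran from 14.3 to 35.8 over 12 alternatives and Cdk6 from 0.211 to 0.359 over 11, as subtraction of free RNA left 0 in EWAT and gave no ratio. Cdkn1b in T or NK cells ran from 3.12 to 10.6 over 8, since 4 alternatives left fewer than 50 nuclei, and Cdkn2c passed 2-fold in 7 of 12. A fold of 1.5 in place of 2 raised the shares of all genes to 16.1% above and 27.4% below in HWAT macrophages, 11.6% and 12.0% in SWAT endothelium, 18.3% and 13.9% in EWAT adipocytes, 22.9% and 34.1% in HWAT adipocytes, and 13.2% above in NWAT endothelium. It called 1 gene above in EWAT adipocytes (Cdkn2a), 3 below there (Cdkn1a, Cdkn2b and Cdk6) and 1 below in HWAT adipocytes (Cdkn1c), and it added Cdkn2c to the genes above in HWAT adipocytes (5) and NWAT endothelium (3). With no minimum count the shares were 11.8% above in HWAT macrophages, 7.89% above and 14.5% below in SWAT endothelium, 17.4% below in EWAT adipocytes and 27.9% above in HWAT adipocytes. With at least 100 counts they were 2.93% above and 2.38% below in SWAT endothelium and 3.78% below in EWAT adipocytes, with 0 members below and 2 above in HWAT macrophages (Cdkn2b lost), 3 above in HWAT adipocytes (Cdkn2a lost) and 1 above in NWAT endothelium (Cdkn1a). Of the alternatives chosen after seeing the data, leaving out the NWAT library gave 1 gene below in HWAT adipocytes (Cdkn1c), and leaving out MWAT (Cdkn2b kept) or EWAT (Cdkn1a kept) gave 1 above in NWAT endothelium. Apart from the changes that follow from fewer nuclei, another fold or another minimum, the cause was not tested. No paired analysis was possible because each depot has 1 library. Pools of mice, single libraries and class names rebuilt from markers limit every comparison between depots, and levels under a few CPM rest on a handful of counts.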

Other observations

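Several cell classes were found in a single library, and the 7 genes are given there as values. In MWAT, smooth muscle-like nuclei (3414) held Cdkn1b at 89.0 CPM, Cdkn2c at 38.3, Cdk6 at 29.6, Cdkn1a at 13.1 and Cdkn1c at 9.58, with 3 counts of Cdkn2a and 5 of Cdkn2b. Interstitial cell of Cajal-like nuclei (511) held Cdkn1b at 70.3 CPM, Cdkn1c at 20.1 and Cdk6 at 11.5, and Schwann- or glial-like nuclei (342) Cdk6 at 36.6 and Cdkn1a at 26.9, both with 0 counts of Cdkn2a and Cdkn2b. Skeletal muscle-like nuclei of NWAT (130) had 0 counts of Cdkn1a and Cdkn1c and 1 of Cdk6. HWAT plasma cell-like nuclei (254) held Cdkn2c at 47.2 CPM and Cdk6 at 12.3.

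In HWAT macrophages 165 of 1196 nuclei had a UMI of Cdkn1a, 160 of Cdkn2a and 32 of both, beside 27.1 if the genes were found independently among nuclei of like UMI depth. For Cdkn2a and Cdkn2b, neighbours in the genome, the numbers were 10 and 6.43, and for Cdkn2a and Cdkn2c 3 and 7.01. No test was made of these counts.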
